A study of Rattus norvegicus with 24 samples.

Results

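Collagen maturation and crosslinking enzymes were examined in the non-infarcted left ventricle of rats after myocardial infarction (MI), with and without thyroxine (T4). The set holds the 10 genes P4ha1, P4ha2, P4ha3, Plod1, Plod2, Serpinh1, Bmp1, Pcolce, Loxl2 and Tgm2, and each was measured by 1 of the 22523 probes of the Illumina RatRef-12 array, on which 13337 genes are named. The rule takes members by gene symbol and uses no measured value, but the set was drawn up with earlier results of these data known. All 12 animals were female Sprague-Dawley rats labelled as 3 months old, with 4 rats in each group. MI+T4 rats had the left anterior descending coronary artery ligated and received at surgery a subcutaneous pellet with 3.3 mg of T4, made to release it over 60 days. MI rats had the same ligation and Sham rats a loosely tied suture, and per the methods both received a placebo pellet. RNA came from the basal left ventricle 4 weeks after surgery, and per the methods rats with small or very large infarcts were excluded. T4 was given to infarcted rats alone, so no group shows T4 without an infarct.

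Collagen chains are modified while they are made and again after they leave the cell. In the endoplasmic reticulum, prolyl hydroxylases act on proline, which stabilizes the collagen helix, and lysyl hydroxylases act on lysine, which prepares the sites of later crosslinks. Chaperones such as Hsp47, the product of Serpinh1, hold the folded procollagen on its way out. Outside the cell, proteinases remove the propeptides so that fibrils can form, and lysyl oxidases and transglutaminases link the chains to each other. In heart, most of this work is done by fibroblasts, and crosslinked collagen is known to stiffen the wall.

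Promoter sequences from RefSeq (GRCr8 assembly, 250 bases before to 50 after the annotated start) matched 7 of the 10 members by symbol, and 3 of them are shown here. Capitals mark matches on either strand to ACGTG, the core of the hypoxia response element, to GGGCGG, the GC box, and to AGGTCA, the core hexamer of nuclear receptor elements, thyroid hormone receptor elements among them. P4ha1 lies at chr20:27844796-27845095 on the plus strand, Plod1 at chr5:163650688-163650987 on the minus strand and Plod2 at chr8:101964068-101964367 on the plus strand.
P4ha1: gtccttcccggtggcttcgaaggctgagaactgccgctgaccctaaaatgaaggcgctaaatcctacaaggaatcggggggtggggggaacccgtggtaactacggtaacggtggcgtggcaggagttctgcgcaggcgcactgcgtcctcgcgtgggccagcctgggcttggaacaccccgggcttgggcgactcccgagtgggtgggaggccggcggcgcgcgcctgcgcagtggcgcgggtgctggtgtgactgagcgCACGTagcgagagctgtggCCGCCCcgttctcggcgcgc
Plod1: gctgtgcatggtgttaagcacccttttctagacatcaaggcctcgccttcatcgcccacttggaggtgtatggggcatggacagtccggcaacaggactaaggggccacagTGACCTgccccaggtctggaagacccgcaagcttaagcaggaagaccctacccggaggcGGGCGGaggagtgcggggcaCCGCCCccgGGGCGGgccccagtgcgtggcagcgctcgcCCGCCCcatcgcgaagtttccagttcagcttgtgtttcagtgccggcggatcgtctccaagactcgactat
Plod2: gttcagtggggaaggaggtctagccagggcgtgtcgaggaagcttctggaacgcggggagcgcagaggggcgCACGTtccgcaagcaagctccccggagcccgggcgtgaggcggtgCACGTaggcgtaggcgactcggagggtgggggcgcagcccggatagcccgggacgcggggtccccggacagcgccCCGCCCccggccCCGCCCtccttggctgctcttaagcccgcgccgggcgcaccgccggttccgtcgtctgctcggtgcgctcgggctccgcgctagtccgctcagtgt
ACGTG was found in the windows of 3 of 7 members, with 1 match in P4ha1, 2 in P4ha2 and 2 in Plod2, and in 19.3% of all 33469 promoters of this length. GGGCGG was found in 7 of 7 members and in 33.1% of all promoters. AGGTCA was found in 1 of 7 members, Plod1, and in 16.2% of all promoters. These matches describe the letters of the windows only and say nothing of binding.

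Levels are the signals that the authors deposited after variance stabilization and normalization, taken here as log2 values. Each rat was measured on 2 arrays, on a first BeadChip and on a second one, and a level given below is the mean of both. The array medians lay between 7.81 and 7.82, and the 2 arrays of a rat correlated at 0.9966 to 0.9975. Each probe was fitted in limma with the 3 group means, with a correlation of 0.243 shared by all probes for arrays of 1 rat, and an adjusted p under 0.05 over all probes of a comparison was called a change. This shared correlation was lower than that of most members, which was 0.725 to 0.921 for Plod1, Plod2, P4ha1, Bmp1, Pcolce, Loxl2 and Tgm2, so the SEs and p-values of these genes can be too small. The correlation was 0.458 for P4ha2, -0.25 for Serpinh1 and -0.80 for P4ha3. Differences between rats of a group in Serpinh1 and P4ha3 thus did not repeat between arrays. In limma with 1 mean per rat, 0 of the 10 members passed in any comparison. Of all probes 0.0% passed there between MI and Sham, with 2561 of 22523 at an unadjusted p under 0.05, and 0.00444% between MI+T4 and Sham. Every change named below shares this limit, and 95% intervals below are those from 1 mean per rat.

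Between MI and Sham, 5 of the 10 members rose and 0 fell. They were both lysyl hydroxylases (Plod1 and Plod2), the procollagen proteinase Bmp1 and both crosslinking enzymes (Loxl2 and Tgm2), with log2 differences of 0.32 to 0.70. Of all probes, 1.89% were called higher in MI. The median log2 difference of the 10 members was 0.35, against a median of -0.0028 for the named genes of the array. All 4 MI rats lay above all 4 Sham rats for 3 members, Plod1, Loxl2 and Tgm2, and 2.63% of all probes had that pattern.

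Of the lysyl hydroxylases, Plod1 encodes the enzyme that acts mainly on lysines of the helical part of collagen. Plod1 levels were 10.76, 10.73, 10.89 and 10.70 in the MI+T4 rats, 10.98, 10.68, 10.79 and 10.99 in MI rats, and 10.51, 10.47, 10.64 and 10.55 in Sham rats. Every infarcted rat, treated or not, was above every Sham rat, and the MI+T4 and MI rats overlapped. The MI mean of 10.86 ± 0.15 was higher than the Sham mean of 10.54 ± 0.073 (SD, n = 4 each) by 0.32 on the log2 scale (SE 0.053, adjusted p = 0.00116 by limma, 1.25-fold, interval 0.17 to 0.47). The MI+T4 mean of 10.77 ± 0.085 (SD, n = 4) was higher than that of Sham by 0.23 (SE 0.053, adjusted p = 0.0244, interval 0.078 to 0.38). The SD of Plod1 between rats within groups was 0.108, and on rat means neither difference passed (adjusted p = 0.174 for MI and 0.426 for MI+T4 against Sham).

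Plod2 encodes the lysyl hydroxylase of the collagen telopeptides, whose hydroxylated lysines give the more stable pyridinoline crosslinks. Plod2 levels were 10.99, 10.97, 11.65 and 10.50 in the MI+T4 rats, 11.54, 11.12, 10.81 and 11.64 in MI rats, and 10.55, 10.62, 10.89 and 10.83 in Sham rats. The spread within the infarcted groups was wide, with 1 of 4 MI+T4 rats and 2 of 4 MI rats above 11.5. Of the other 5 infarcted rats, MI+T4 replicates 5 and 6 and MI replicate 6 were above every Sham rat, MI replicate 7 was within the range of Sham and MI+T4 replicate 8 below it. MI averaged 11.28 ± 0.38 and Sham 10.72 ± 0.16 (SD, n = 4 each), a log2 difference of 0.56 (SE 0.16, adjusted p = 0.0421, 1.47-fold, interval 0.075 to 1.04). This call was kept in 4 of the 12 fits that left out 1 rat, those without MI+T4 replicate 7 or 8 or MI replicate 6 or 7, and the adjusted p in the other fits reached 0.256, without MI replicate 8. MI+T4 averaged 11.03 ± 0.47 (SD, n = 4) and did not pass against Sham (0.31, adjusted p = 0.532).

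**Figure D1:**
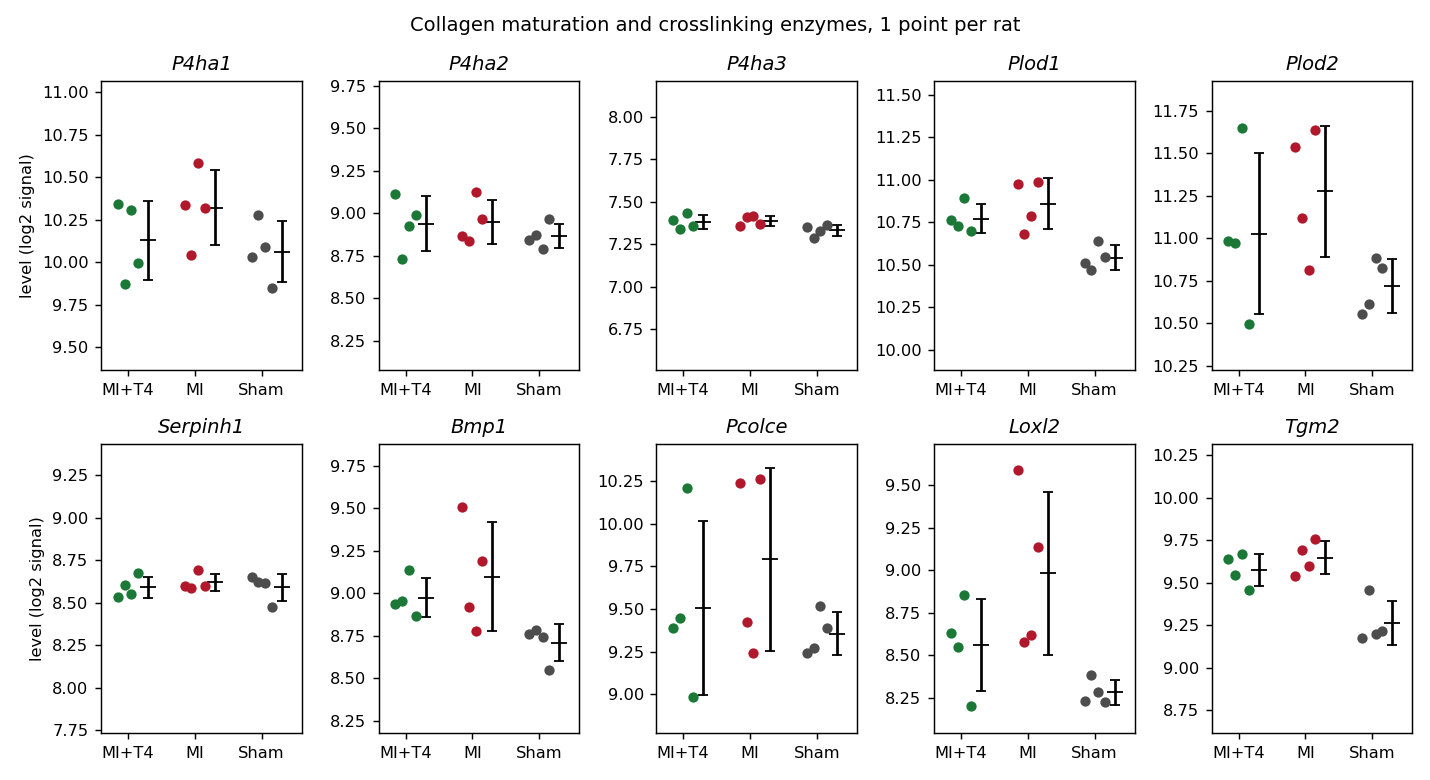
Level of each of the 10 members on the log2 signal scale (vertical axis, the same span in every panel), with 1 point per rat as the mean of its 2 arrays and bars for the group mean ± SD (n = 4). The points of Plod1 and Tgm2 in both infarcted groups lie above those of Sham, and Plod2, Pcolce and Loxl2 spread widely in MI.

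Loxl2, a lysyl oxidase family member that oxidizes lysines for crosslinking, had the largest difference of the 10 members between MI and Sham. Its levels were 8.63, 8.55, 8.86 and 8.20 in the MI+T4 rats, 9.59, 8.58, 8.62 and 9.14 in MI rats, and 8.23, 8.39, 8.29 and 8.23 in Sham rats. All MI rats were above all Sham rats, and MI replicates 5 and 8 stood well above the other MI rats. MI averaged 8.98 ± 0.48 and Sham 8.28 ± 0.074 (SD, n = 4 each), with a log2 difference of 0.70 (SE 0.14, adjusted p = 0.00556 by limma, 1.62-fold, interval 0.28 to 1.12). The call held in each of the 12 fits without 1 rat, where the difference was 0.50 to 0.83. Fits without an MI+T4 rat can change the SE of this difference but not the difference. MI+T4 averaged 8.56 ± 0.27 (SD, n = 4), 0.28 above Sham (adjusted p = 0.534), with replicate 8 below every Sham rat.

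Tgm2, or tissue transglutaminase, which joins glutamine to lysine residues of matrix proteins, had the smallest adjusted p of the set. Tgm2 levels were 9.64, 9.55, 9.67 and 9.46 in the MI+T4 rats, 9.54, 9.69, 9.60 and 9.76 in MI rats, and 9.17, 9.45, 9.20 and 9.22 in Sham rats. The MI rats were tightly grouped and all above Sham, and the 3 Sham rats other than replicate 2 lay close together. MI averaged 9.65 ± 0.097 and Sham 9.26 ± 0.13 (SD, n = 4 each), a log2 difference of 0.39 (SE 0.057, adjusted p = 4.93e-04, 1.31-fold, interval 0.23 to 0.54). MI+T4 averaged 9.58 ± 0.094 (SD, n = 4), 0.32 above Sham (SE 0.057, adjusted p = 0.00363, interval 0.16 to 0.47). The lowest MI+T4 rat lay just above the highest Sham rat, by less than the median difference of 0.0866 between the 2 arrays of a rat. Both calls of Tgm2 held in 12 of 12 fits that left out 1 rat. A fit without a rat of the third group can change the SE but not the difference.

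Bmp1 encodes the procollagen C-proteinase, which cuts the C-propeptide from procollagen and also activates lysyl oxidase. Bmp1 levels were 8.94, 8.95, 9.14 and 8.86 in the MI+T4 rats, 9.51, 8.92, 8.78 and 9.19 in MI rats, and 8.76, 8.79, 8.74 and 8.55 in Sham rats. MI replicate 7 lay within the range of Sham, and the other MI rats were above it. MI averaged 9.10 ± 0.32 and Sham 8.71 ± 0.11 (SD, n = 4 each), with a log2 difference of 0.39 (SE 0.098, adjusted p = 0.0215, 1.31-fold, interval 0.11 to 0.67). The call was lost in 3 of 12 fits, with an adjusted p of 0.150 when MI replicate 5 was left out, 0.120 for MI replicate 8 and 0.0852 for Sham replicate 4, and the difference without MI replicate 5 was 0.25. In MI+T4, Bmp1 averaged 8.97 ± 0.11 (SD, n = 4) and all 4 rats were above all Sham rats, but the difference of 0.26 did not pass (adjusted p = 0.256).

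Pcolce encodes the enhancer that binds the procollagen C-propeptide and speeds its removal by Bmp1. Pcolce levels were 9.39, 9.45, 10.21 and 8.98 in the MI+T4 rats, 10.24, 9.42, 9.24 and 10.26 in MI rats, and 9.24, 9.27, 9.52 and 9.39 in Sham rats. In 3 infarcted rats the level was above 10.2, while each of the other infarcted rats lay within or below the range of Sham. MI averaged 9.79 ± 0.54 and Sham 9.35 ± 0.13 (SD, n = 4 each), and the log2 difference of 0.44 did not pass (SE 0.18, adjusted p = 0.237, interval -0.14 to 1.01). It passed without MI replicate 7 (0.62, adjusted p = 0.0347). MI+T4 averaged 9.51 ± 0.51 (SD, n = 4).

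The 3 prolyl 4-hydroxylase alpha subunits, which carry the catalytic site, did not pass in any comparison. P4ha1, the most widely expressed of them, had levels of 10.34, 9.87, 10.31 and 9.999 in the MI+T4 rats, 10.34, 10.04, 10.59 and 10.32 in MI rats, and 10.03, 10.28, 10.09 and 9.85 in Sham rats. The 3 groups overlapped, and the highest rat was MI replicate 7, a rat low for Plod2 and Pcolce. The MI mean of 10.32 ± 0.22 was 0.26 above the Sham mean of 10.06 ± 0.18 (SD, n = 4 each, adjusted p = 0.143, interval -0.024 to 0.54), and this passed without MI replicate 6 (0.35, adjusted p = 0.0264). MI+T4 averaged 10.13 ± 0.23 (SD, n = 4). P4ha2 lay between 8.73 and 9.11 in MI+T4 rats, between 8.84 and 9.13 in MI rats and between 8.79 and 8.96 in Sham rats, and MI differed from Sham by 0.082 (adjusted p = 0.733, interval -0.093 to 0.26). The P4ha3 probe was dim, with a mean at percentile 3.57 of all probes and rats between 7.28 and 7.43. Its 2 arrays differed within a rat by a median of 0.116 and by up to 0.450, and its SD between rats was 0.035. Its group means differed by 0.056 or less.

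Serpinh1, the collagen chaperone, had the smallest difference of the 10 members between MI and Sham. Its levels were 8.53, 8.60, 8.55 and 8.67 in the MI+T4 rats, 8.60, 8.59, 8.69 and 8.60 in MI rats, and 8.65, 8.62, 8.62 and 8.47 in Sham rats. The groups overlapped fully, with means of 8.59 ± 0.063 in MI+T4, 8.62 ± 0.050 in MI and 8.59 ± 0.079 in Sham (SD, n = 4 each). MI differed from Sham by 0.027 on the log2 scale (adjusted p = 0.935), with an interval of -0.075 to 0.13. For Serpinh1 the 2 arrays of a rat differed by a median of 0.0650 and by up to 0.418, and the SD between rats within groups was 0.0655.

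**Figure D2:**
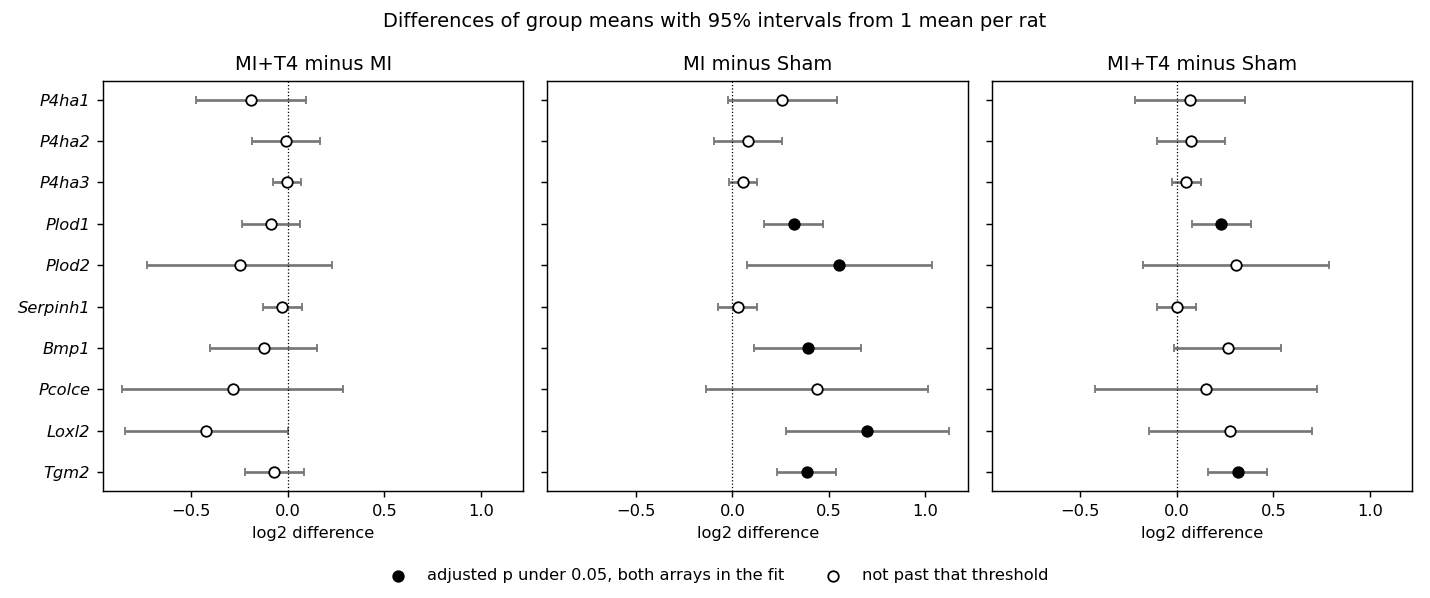
Differences of group means on the log2 scale (horizontal axis) for the 10 members, with bars for the 95% interval from 1 mean per rat and filled points for an adjusted p under 0.05 with both arrays in the fit. Filled points stand for 5 members in MI minus Sham and 2 in MI+T4 minus Sham, and in MI+T4 minus MI all 10 points are open and below 0.

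The comparison of MI+T4 with MI asks what T4 changed after infarction. None of the members passed (0 of 10), and neither did any probe of the array (0.0% called, with 1670 probes at an unadjusted p under 0.05 in limma). The study did report genes changed by T4, with a moderated F test and a detection filter. By nested F, which first tests the 3 groups jointly, 51 probes were higher and 43 lower, with 0 of 10 members among them. The differences of all 10 members were below 0, with a median of -0.11 against 0.0026 for the named genes. Members share the same rats, so 10 differences of 1 sign are not 10 separate observations. Loxl2 had the largest difference, -0.42 (SE 0.14, unadjusted p = 0.00586 and adjusted p = 0.387 by limma), with an interval of -0.845 to 0.000725. Without MI replicate 5 this difference was -0.22 and without MI replicate 7 it was -0.54.

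Next in size between MI+T4 and MI came Pcolce at -0.29 (interval -0.86 to 0.29), Plod2 at -0.25 (interval -0.73 to 0.23), P4ha1 at -0.19 (interval -0.47 to 0.093) and Bmp1 at -0.13 (interval -0.40 to 0.15). Single rats moved these values widely, with Pcolce at -0.11 and Plod2 at -0.073 without MI+T4 replicate 8, and at -0.52 and -0.46 without MI+T4 replicate 7. P4ha1 was -0.10 without MI+T4 replicate 6 or MI replicate 7, and Bmp1 was 0.012 without MI replicate 5 and -0.23 without MI replicate 7. Intervals of this width leave room for differences as large as those between MI and Sham. The intervals were narrower for Plod1 (-0.087, from -0.24 to 0.065) and Tgm2 (-0.070, from -0.22 to 0.083), and neither reached the MI minus Sham difference of its gene in size. P4ha2, P4ha3 and Serpinh1 differed by 0.029 or less in size. For 0 of 10 members were the MI+T4 rats all below the MI rats, a pattern of 1.36% of all probes.

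In MI+T4 against Sham, 2 of 10 members rose, Plod1 and Tgm2, with the values given above, and 0.719% of all probes were called higher. The rats of MI+T4 were all above those of Sham for 3 of 10 members, Plod1, Bmp1 and Tgm2, against 2.33% of all probes. This comparison shares its Sham rats with MI vs Sham and its T4 rats with MI+T4 vs MI, so the 3 comparisons do not repeat each other independently. The call of Plod1 was lost in 5 of 12 fits without 1 rat, those without MI+T4 replicate 5 (adjusted p = 0.0640) or 7 (0.160) or Sham replicate 1 (0.0824), 2 (0.107) or 4 (0.0618).

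The members did not vary among the rats in the same way. Plod1, Plod2, Bmp1, Pcolce and Loxl2 had the same 3 highest rats of 12, MI+T4 replicate 7 and MI replicates 5 and 8. MI+T4 replicate 8 was the lowest of all rats for Plod2, Pcolce and Loxl2. P4ha1 and P4ha2 were instead highest in MI replicate 7. Serpinh1 was also highest there, but its differences between rats did not repeat between arrays (correlation -0.25). For Tgm2 the rats differed less within the infarcted groups, and MI replicate 5, the highest rat for Loxl2 and Bmp1, was the lowest of the 4 MI rats. The median of the 10 members above the Sham mean was 0.24, 0.14, 0.38 and 0.053 for MI+T4 rats 5 to 8 and 0.36, 0.11, 0.17 and 0.46 for MI rats 5 to 8, while the Sham rats lay between -0.032 and 0.027.

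The substrates of these enzymes followed the same rats. The median of 7 fibrillar collagen chains above the Sham mean was 0.35, 0.16, 0.89 and -0.15 for MI+T4 rats 5 to 8, against 1.46, 0.24, 0.040 and 1.11 for MI rats 5 to 8. The same 3 rats were thus the highest for the collagens and for Plod1, Plod2, Bmp1, Pcolce and Loxl2. Of the 7 fibrillar chains, 4 rose in MI against Sham and 0 fell, with a median difference of 0.73, and Col5a1, a chain that regulates fibril diameter, rose by 0.76 (adjusted p = 0.00646). The type I chains Col1a1 and Col1a2 were higher by 0.91 and 0.71 but did not pass (adjusted p = 0.0785 and 0.0783 by limma). Of 7 other chains, 3 rose, with a median of 0.45, and Col8a1, a short chain network collagen, rose by 1.48 (adjusted p = 0.00247). Beside these counts of chains, 1.89% of all probes were called higher in MI. Col4a1, of the basement membrane, rose by 0.62 in MI (adjusted p = 9.85e-06) and by 0.56 in MI+T4 against Sham (adjusted p = 4.69e-05).

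**Figure D3:**
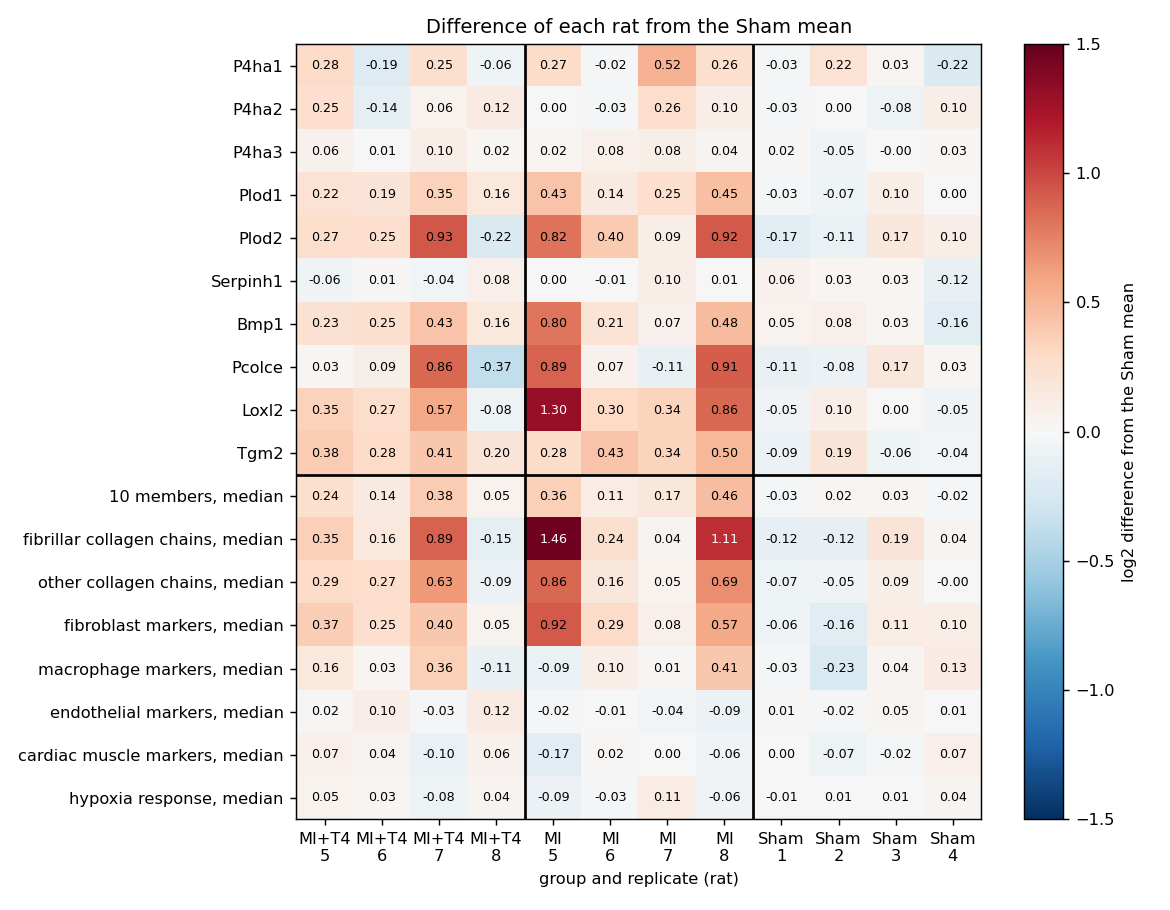
Log2 difference of each of the 12 rats (columns, by group and replicate) from the Sham mean, for each member and, below the line, for the median of the members and of other gene lists. MI+T4 replicate 7 and MI replicates 5 and 8 have the highest values of the 12 rats for Plod2, Bmp1, Pcolce, Loxl2 and the collagen chains. Serpinh1 and the endothelial markers stay pale in all rats.

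Markers of other cells were measured in the same samples, since in bulk tissue more or fewer cells of a type and more or less RNA per cell cannot be told apart. Fibroblast markers (10 of 10 measured) had mean levels of 11.14 to 11.71 in MI+T4 rats, 11.28 to 11.99 in MI rats and 10.96 to 11.24 in Sham rats, and 5 of them rose in MI, among them Pi16 by 1.11, Cd248 by 0.90 and Mfap5 by 1.17 (adjusted p = 3.22e-04, 4.93e-04 and 0.00135 in limma). Of all probes, 1.89% were called higher in MI. The median of the fibroblast markers above the Sham mean was 0.37, 0.25, 0.40 and 0.053 for MI+T4 rats 5 to 8. It was 0.92, 0.29, 0.078 and 0.57 for MI rats 5 to 8. The highest values of each group were those of MI+T4 replicate 7, just above replicate 5, and of MI replicates 5 and 8. Activated fibroblast markers (4 of 6 measured, 0 called) were also highest in these 3 rats, at 0.61 in MI+T4 replicate 7 and 0.92 and 1.14 in MI replicates 5 and 8. Macrophage markers (5 of 7 measured, 0 called) had mean levels of 8.50 to 8.96 in MI+T4, 8.62 to 9.06 in MI and 8.37 to 8.86 in Sham, with MI+T4 replicate 7 and MI replicate 8 highest. The part of these cells in the differences of the members was not tested.

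The median of the cardiac muscle markers (7 of 8 measured, 0 called) was lowest in the same 3 rats within their groups, at -0.096 from the Sham mean in MI+T4 replicate 7 (0.039 to 0.075 in the other MI+T4 rats) and -0.17 and -0.056 in MI replicates 5 and 8 (0.022 and 0.0049 in the other MI rats), while the Sham rats lay between -0.072 and 0.074. The part of muscle in the differences of the members was not tested. Endothelial markers (5 of 7 measured, 0 called) lay between 10.35 and 10.48, smooth muscle and pericyte markers (4 of 6, 0 called) between 9.94 and 10.20 and cardiac muscle markers between 13.38 and 13.65 over all 12 rats. Myh6, a myosin of cardiac muscle, was at 16.16 ± 0.041 in MI+T4, 16.03 ± 0.079 in MI and 16.10 ± 0.066 in Sham (SD, n = 4 each). The samples thus hold cardiac muscle, but this marker does not tell ventricle from atrium. Of chondrocyte and bone markers, 2 of 5 were measured and 0 called. Atrial muscle markers varied widely, however. Myl7, a myosin light chain of atrial muscle, lay between 11.12 and 16.14 in MI+T4, 11.09 and 14.67 in MI and 9.29 and 14.28 in Sham, and Nppa, which stressed ventricle also makes, rose by 2.26 in MI (adjusted p = 0.00159). The mean of these 2 atrial markers (of 4 listed) was 16.11, 13.39, 15.92 and 12.67 for MI+T4 rats 5 to 8. It was 15.25, 14.01, 12.97 and 15.12 for MI rats 5 to 8 and 14.10, 14.20, 10.85 and 10.90 for Sham rats 1 to 4. The part of atrial tissue in these results was not tested.

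MI+T4 replicate 7 and MI replicates 5 and 8 were also left out together, which keeps 3 MI+T4 rats, 2 MI rats and 4 Sham rats. They are the 3 highest rats for Plod1, Plod2, Bmp1, Pcolce and Loxl2, so smaller differences of these genes follow from the choice of rats, and the values are given as a description only. In MI against Sham 1 of 10 members passed, and 0.249% of all probes were called higher. The differences were 0.38 for Tgm2 (adjusted p = 0.00846), 0.32 for Loxl2, 0.24 for Plod2, 0.19 for Plod1, 0.14 for Bmp1 and -0.024 for Pcolce. In MI+T4 against MI they were -0.14 for Loxl2, -0.15 for Plod2, -0.060 for Pcolce, -0.0042 for Plod1 and 0.071 for Bmp1. In MI+T4 against Sham, Plod1 (0.19, adjusted p = 0.0298) and Tgm2 (0.29, adjusted p = 0.0143) passed, with 0.79% of all probes called higher.

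The other genes of collagen maturation were taken from a list of 35 by role, of which 27 were measured. In MI against Sham 8 of these rose and 0 fell, with a median difference of 0.14, and 23 were higher. Over the array, 1.89% of all probes were called higher in MI, and 48.2% of the named genes were higher. In MI+T4 against MI 0 of 27 passed (median -0.037, 12 higher). In MI+T4 against Sham 3 rose and 0 fell (median 0.099), where 0.719% of all probes were called higher. Of 8 genes of proline and lysine hydroxylation, 3 rose in MI, P4hb, the shared beta subunit of prolyl 4-hydroxylase, by 0.24 (adjusted p = 0.0377), Plod3, the lysyl hydroxylase that also adds sugars, by 0.22 (0.0327) and P3h3, of the prolyl 3-hydroxylase family, by 0.44 (0.0434). P4hb thus passed where the 3 alpha subunits did not, and the difference between them was not tested. The list also holds Phyh, a hydroxylase of a fatty acid and not of collagen (-0.079, adjusted p = 0.794).

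Of 8 genes of folding and export, 3 rose in MI, with a median of 0.17 over the list. Fkbp10, a chaperone that works with Plod2 on telopeptide lysines, rose by 0.71 (adjusted p = 0.0262) and Ppib, the cyclophilin that speeds folding of the collagen helix, by 0.38 (0.0213), and Plod3, held in both lists, was the other one. Of 7 other crosslinking genes 3 rose, with a median of 0.29, and those were Loxl1 by 0.90 (adjusted p = 0.0221), Lox by 0.77 (0.0138) and Tgm1 by 0.48 (0.00498). Lox and Loxl1 are the lysyl oxidases of fibrillar collagen and elastin, and between MI+T4 and MI they differed by -0.57 (adjusted p = 0.326) and -0.52 (0.587), in size above the -0.42 of Loxl2. Of 5 other genes of propeptide cleavage 0 passed, with a median of 0.035, and Adamts2, the procollagen N-proteinase, was 0.49 higher in MI (adjusted p = 0.0879).

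**Figure D4:**
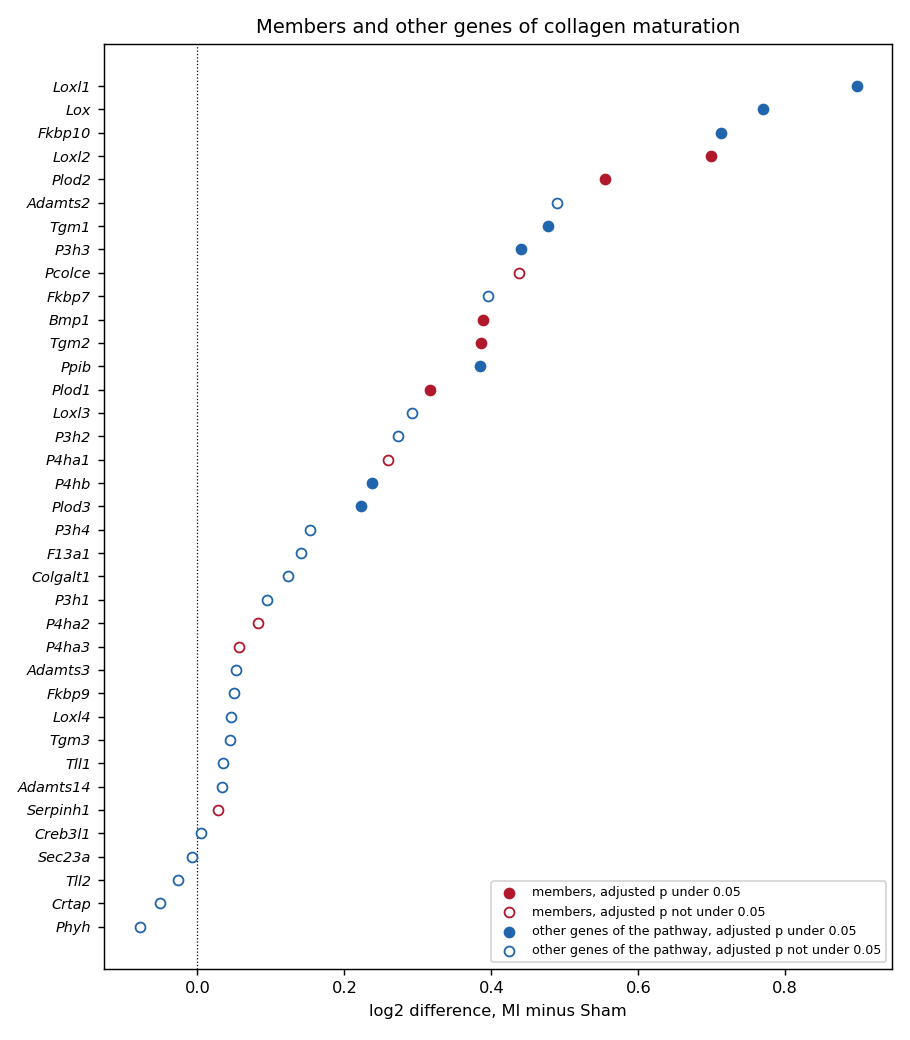
Log2 difference of MI minus Sham (horizontal axis) for the 10 members (red) and 27 other genes of collagen maturation (blue), ordered by size, with filled points for an adjusted p under 0.05. Lox, Loxl1 and Fkbp10 lie above Loxl2, the highest member, and the filled points all lie to the right of 0.

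Genes of the hypoxia response were set beside the members because prolyl and lysyl hydroxylases are known targets of that response. Of 11 measured genes of this list (14 listed), 0 rose and 1 fell in MI against Sham, and the median difference was 0.028. The gene that fell was Vegfa, a growth factor for vessels, by 0.38 (adjusted p = 0.0201). Of all 22523 probes, 426 were called higher and 388 lower in MI. P4ha1, P4ha2 and Plod2, the members with ACGTG in the window, differed by 0.26, 0.082 and 0.56 between MI and Sham, and only Plod2 of them passed.

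The genes most like the median profile of the members over the 12 rats were Cd151, Rom1, Cenpt, Ifitm3 and Lrrc51. Their scaled values differed from that profile by 0.234, 0.255, 0.263, 0.265 and 0.274 SD on average, against a median of 1.12 over 13327 genes. This likeness is a description, since these 5 were the closest of all. Ifitm3, an interferon-induced membrane protein, had mean levels of 13.07 in MI+T4, 13.14 in MI and 12.54 in Sham, and Cd151, a tetraspanin that binds integrins, 11.72 in MI+T4, 11.82 in MI and 11.50 in Sham.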

How the data were processed

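Illumina RatRef-12 BeadChips measured left ventricular RNA of 4 MI+T4, 4 MI and 4 Sham rats, with 2 arrays per rat. The deposited table of 22523 probes was made by the authors by a variance stabilizing transformation similar to log2, which compresses differences of dim probes, and robust spline normalization. Its values are read as log2 and span 6.88 to 16.47. A table of non-normalized signals was left out, since the names of its 48 columns give chip positions that no source ties to samples, so the detection filter of the study was not applied and no signal over background is known. The number of rats and arrays limits the precision.

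Probes were named through the Entrez identifiers of the array annotation, with current symbols from RefSeq genes of the GRCr8 assembly, used for names only (13793 probes with 1 symbol, 8730 with none and 0 with several, and 13752 annotated probes found in RefSeq). Each member has 1 probe, and another gene with several is given by its brightest. A linear model of 3 group means was fitted to all 24 arrays with rat as block in R 4.3.3 (limma 3.58.1, with statmod 1.5.0), followed by eBayes, and p-values were adjusted by Benjamini-Hochberg over 22523 probes for each comparison, with calls at 0.05. SDs are over 4 rat means. SEs are the moderated ones of this fit, and 95% intervals come from the same model on rat means.

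All members are named. Of each other list up to 3 genes are named, those with the smallest p in MI vs Sham, and the 5 genes most like the members are those whose centred and scaled 12 rat means differ least from the median member profile. Phyh, Col1a1 and Col1a2 were named outside this rule, after their values were seen. The members, gene lists and tests were chosen with earlier results of these data known. Alternatives were rat means, nested F, only the compared groups, a trended and robust prior, the technical replicate as a term or alone, quantile normalization, the brighter part of the probes, gene means, each rat left out, 3 rats left out and a replicate block. Summaries and plots used Python 3.11.15, pandas 2.3.3 and matplotlib 3.10.9.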

Additional observations from a re-analysis of the deposited data

Results flagged for a closer look

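In 2 of the 30 sets of 4 rats (10 members in 3 groups), 1 rat stood apart from the other 3 by Dixon's criterion, which chance exceeds in about 1 of 20 such sets. Serpinh1 was at 8.69 in MI replicate 7, the highest of the MI rats, whose others lay between 8.59 and 8.60. The arrays of a rat correlated at -0.25 for Serpinh1, so its differences between rats are not resolved. Tgm2 was at 9.45 in Sham replicate 2, the highest of the Sham rats, whose others lay between 9.17 and 9.22. Without this Sham rat the Tgm2 difference of MI minus Sham was 0.45 (adjusted p = 6.84e-05 by limma), against 0.39 with it.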

How the results depend on the processing

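Between MI and Sham, 5 members passed in limma with both arrays in the fit, 0 on rat means, 3 by nested F (263 of 22523 probes higher), 0 on technical replicate 1 alone (0 probes higher), 0 on technical replicate 2 alone (2 probes higher), 1 with 3 rats left out (MI+T4 replicate 7, MI replicates 5 and 8), and 3 to 6 with each rat left out. The count of 3 came without MI replicate 5, MI replicate 8 or Sham replicate 4. The 3 rats left out together were the highest for several members, so the count without them is a description only. In MI+T4 against Sham, 2 members passed, 0 on rat means, 1 with a trended and robust prior, 0 on each technical replicate alone and 1 to 2 with each rat left out. Between MI+T4 and MI, 0 members passed under every alternative run. Leaving out 1 rat moved the probes called between MI and Sham over the whole array, 426 higher and 388 lower with all rats, to 111 higher and 82 lower without MI replicate 8 and to 828 higher and 746 lower without MI replicate 7. Nested F called 51 probes higher and 43 lower between MI+T4 and MI, where 0 were called with separate adjustment.

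MI and MI+T4 rats share the replicate numbers 5 to 8 but are different animals. The correlation of their deviations between rats of the same number was 0.11, 0.25, -0.53 and -0.48. With 4 rats in each group, these values do not decide whether the numbers pair the rats. With the number as a replicate block, 0 members passed, and 26 probes were higher and 11 lower between MI+T4 and MI.

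Under some alternatives the sign of a member turned. Between MI+T4 and MI it turned for P4ha2 (0.015 on technical replicate 1, -0.068 to 0.061 without each rat), P4ha3 (0.14 on technical replicate 1, -0.024 to 0.0072) and Bmp1 (0.071 without 3 rats, -0.23 to 0.012). Between MI and Sham it turned for P4ha3 (-0.054 on technical replicate 1), Serpinh1 (-0.0014 on technical replicate 2, -0.012 to 0.047) and Pcolce (-0.024 without 3 rats). Between MI+T4 and Sham it turned for P4ha1 (-0.0036 to 0.155 without each rat), Serpinh1 (0.037 on technical replicate 1, 0.0065 with quantile normalization, 0.012 without 3 rats, -0.041 to 0.019) and Pcolce (-0.084 without 3 rats, -0.084 to 0.33). The 3 rats left out together are the highest for Bmp1 and Pcolce, so the values of these genes there follow from the choice of rats. The causes of the other turns were not tested. Over all members and alternatives, 190 of 229 between MI and Sham, 229 of 239 between MI+T4 and MI and 205 of 229 between MI+T4 and Sham kept their sign and their side of the threshold. Several alternatives, such as rat means, nested F or leaving out a rat of the third group, cannot change a difference. These counts are therefore a description and not a measure of stability. P4ha3 lies in the dimmer part of the probes and has no value with the brighter part alone.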
